A study of Mus musculus with 2 samples.

Results

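Of the 6632 ARID4B intervals called in the testes of newborn mice, 427 (6.44%) lay away from the ends of genes. An interval was counted as distal when its midpoint was over 5 kb from both ends of every gene record, of any biotype, in the RefSeq gene table of the mouse build GRCm38.p6. Another 1096 intervals (16.5%) lay 1 to 5 kb from a gene end and 5109 (77.0%) within 1 kb of one. The measured value used to rank them, the authors' score, had no part in the choice. Chromatin came from 1 pool of 108 testes of wild type mice at postnatal day 1.5, of a hybrid C57BL6/J and 129/SvEv background. It was precipitated with an antibody to ARID4B, and 1 input library made from the same kind of lysate without antibody served as the control. There was 1 ChIP library and no replicate, so every value below describes that library and no difference could be set against the spread between animals. Whole testes were used, so the cells that carry an interval are not known from these data, and binding intervals do not show whether marker genes of a cell type were expressed.

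ARID4B is a chromatin protein with an AT-rich interaction domain and is known as a subunit of the SIN3 histone deacetylase complex. Many mammalian genes have several promoters, and an alternative start of transcription can lie far inside the span of the gene. Mammalian promoters often sit in CpG islands, stretches where the dinucleotide CG is kept at a higher density than in the rest of the genome, and the SIN3 complex is known to occupy such promoters.

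Distance was measured from the outer ends of genes, and many distal intervals lay near a start of transcription inside a gene. A RefSeq table of promoter sequences lists 300 bases for each start of transcription, 250 before the start and 50 after it, and gives the strand. It covered the chromosomes of 409 of the 427 intervals. Of these 409, 177 (43.3%, 95% exact binomial interval 38.4 to 48.2%) had their midpoint within 1 kb of a listed start. That start always belonged to a gene record that contained the midpoint. The distal rule fixes this, because otherwise an end of that record would lie within 1 kb of the midpoint. Such a start inside the record is called an inner start here. Sequences of the intervals themselves were not used here, because no genome of this build was at hand. The sequences printed here are RefSeq promoter windows of GRCm38.p6, written 5′ to 3′ on the strand of the gene in lower case, with every CG dinucleotide in capitals.

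The first sequences compare starts within single genes, because the contrast between an inner start with a distal interval and the outermost listed start of the same gene without one recurred among the members. Cbfa2t3, which encodes a transcriptional corepressor, had a distal interval of score 365.32 at an inner start whose window, chr8:122678126-122678425 on the minus strand, held 53 CG dinucleotides. The window of its outermost listed start, chr8:122699060-122699359 on the minus strand, held 10 and had no interval within 1 kb. Kdm4c, which encodes a histone lysine demethylase, had a distal interval of score 244.4 at an inner start, chr4:74251629-74251928 on the plus strand, with 28 CG dinucleotides. Its outermost listed start, chr4:74242247-74242546 on the plus strand, held 0 and had no interval. Ubtf, which encodes a transcription factor of RNA polymerase I, had 40 CG dinucleotides at the inner start with an interval of score 275.26, chr11:102317238-102317537 on the minus strand, and 6 at its outermost listed start, chr11:102320813-102321112 on the minus strand.
Cbfa2t3, inner start with interval: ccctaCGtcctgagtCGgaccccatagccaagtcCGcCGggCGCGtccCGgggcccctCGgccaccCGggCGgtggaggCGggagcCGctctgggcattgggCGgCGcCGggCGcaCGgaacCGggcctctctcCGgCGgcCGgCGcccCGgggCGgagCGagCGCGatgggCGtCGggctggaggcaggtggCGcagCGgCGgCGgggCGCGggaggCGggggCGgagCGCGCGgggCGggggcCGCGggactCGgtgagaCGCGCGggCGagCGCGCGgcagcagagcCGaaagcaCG
Cbfa2t3, outermost start without interval: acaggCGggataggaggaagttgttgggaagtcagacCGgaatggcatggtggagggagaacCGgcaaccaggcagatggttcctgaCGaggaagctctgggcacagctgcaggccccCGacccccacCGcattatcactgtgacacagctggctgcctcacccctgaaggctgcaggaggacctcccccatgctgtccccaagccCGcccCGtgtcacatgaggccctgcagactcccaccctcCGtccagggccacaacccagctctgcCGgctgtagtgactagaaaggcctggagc
Kdm4c, inner start with interval: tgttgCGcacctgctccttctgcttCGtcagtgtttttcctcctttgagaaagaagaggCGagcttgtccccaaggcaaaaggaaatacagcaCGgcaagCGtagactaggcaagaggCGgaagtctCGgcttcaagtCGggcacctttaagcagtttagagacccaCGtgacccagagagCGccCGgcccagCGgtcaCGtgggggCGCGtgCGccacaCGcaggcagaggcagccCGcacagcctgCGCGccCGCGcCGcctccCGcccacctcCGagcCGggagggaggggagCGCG
Kdm4c, outermost start without interval: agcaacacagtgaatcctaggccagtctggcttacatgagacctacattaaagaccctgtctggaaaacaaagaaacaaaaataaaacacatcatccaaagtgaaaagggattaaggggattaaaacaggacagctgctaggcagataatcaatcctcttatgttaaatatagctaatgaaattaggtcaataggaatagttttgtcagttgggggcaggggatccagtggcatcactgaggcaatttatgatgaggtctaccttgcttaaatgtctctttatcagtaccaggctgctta
Ubtf, inner start with interval: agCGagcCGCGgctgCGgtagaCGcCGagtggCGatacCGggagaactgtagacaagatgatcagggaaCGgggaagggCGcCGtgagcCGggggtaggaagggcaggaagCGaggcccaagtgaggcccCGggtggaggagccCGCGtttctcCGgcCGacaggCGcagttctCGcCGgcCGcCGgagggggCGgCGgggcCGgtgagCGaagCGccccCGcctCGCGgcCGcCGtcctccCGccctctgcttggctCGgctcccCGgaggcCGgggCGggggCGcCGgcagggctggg
Ubtf, outermost start without interval: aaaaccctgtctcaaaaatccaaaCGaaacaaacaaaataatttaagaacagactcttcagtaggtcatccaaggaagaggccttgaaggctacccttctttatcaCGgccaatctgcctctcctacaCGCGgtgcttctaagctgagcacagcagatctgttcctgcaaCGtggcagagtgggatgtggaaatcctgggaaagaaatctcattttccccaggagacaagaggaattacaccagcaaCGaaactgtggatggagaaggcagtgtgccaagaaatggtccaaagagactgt

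CG density alone did not separate starts with an interval from starts without one. The next sequences show 2 exceptions, in Tafa5 and Lmna, and the best-scoring of the 177 members at a start, in Rreb1. Tafa5, which encodes a small secreted protein, had a distal interval of score 253.32 at an inner start, chr15:87624980-87625279 on the plus strand, with 47 CG dinucleotides, and none at its outermost listed start, chr15:87544049-87544348 on the plus strand, although that window held 56. Rreb1, which encodes a zinc finger transcription factor, had the best-scoring distal interval with a listed start inside it and within 1 kb of the midpoint (score 753.34), and the window of that start, chr13:37826662-37826961 on the plus strand, held 29. Lmna, which encodes the A-type lamins of the nuclear lamina, had the lowest CG density among the members that held a start. Its window, chr3:88503303-88503602 on the minus strand, held 1 CG dinucleotide, and the interval scored 119.26.
Tafa5, inner start with interval: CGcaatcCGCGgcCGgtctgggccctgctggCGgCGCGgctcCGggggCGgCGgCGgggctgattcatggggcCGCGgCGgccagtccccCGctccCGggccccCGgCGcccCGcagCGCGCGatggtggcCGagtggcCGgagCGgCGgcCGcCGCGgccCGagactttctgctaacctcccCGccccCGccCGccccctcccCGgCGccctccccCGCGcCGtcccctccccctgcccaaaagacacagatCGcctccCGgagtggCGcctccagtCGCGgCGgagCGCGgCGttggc
Tafa5, outermost start without interval: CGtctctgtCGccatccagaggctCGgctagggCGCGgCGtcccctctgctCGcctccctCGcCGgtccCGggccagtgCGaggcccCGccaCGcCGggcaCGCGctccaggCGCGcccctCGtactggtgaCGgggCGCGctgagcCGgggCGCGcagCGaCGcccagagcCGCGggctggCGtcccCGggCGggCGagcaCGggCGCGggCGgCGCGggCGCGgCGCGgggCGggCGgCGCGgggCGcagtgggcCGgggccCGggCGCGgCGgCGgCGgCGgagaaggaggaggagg
Rreb1, start held by the interval: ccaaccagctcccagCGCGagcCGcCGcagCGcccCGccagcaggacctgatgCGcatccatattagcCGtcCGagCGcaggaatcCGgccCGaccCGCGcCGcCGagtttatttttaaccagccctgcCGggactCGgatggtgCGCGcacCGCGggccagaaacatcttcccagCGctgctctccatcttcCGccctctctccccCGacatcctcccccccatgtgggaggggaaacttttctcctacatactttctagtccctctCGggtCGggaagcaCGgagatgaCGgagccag
Lmna, start held by the interval: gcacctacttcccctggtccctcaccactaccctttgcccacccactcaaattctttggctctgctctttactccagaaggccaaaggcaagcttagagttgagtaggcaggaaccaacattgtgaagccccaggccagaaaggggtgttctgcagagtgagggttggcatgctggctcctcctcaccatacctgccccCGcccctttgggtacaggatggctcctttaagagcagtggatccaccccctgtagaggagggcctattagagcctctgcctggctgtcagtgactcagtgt

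Distal intervals were concentrated inside genes. Of the 427, 382 (89.5%) had their midpoint in a protein-coding record, 4 in a record of another biotype only, and 41 (9.60%) outside all records. The span between the first and last record of the chromosomes holds 2091 Mb that is over 5 kb from every gene end, assembly gaps included, and protein-coding records make up 37.5% of it. That gave 0.488 distal intervals per Mb inside protein-coding records and 0.0344 per Mb outside all records. The median distance to the nearest gene end was 10.9 kb, with quartiles of 7.25 and 21.3 kb. Of the 427, 230 lay over 10 kb from any end, 23 over 50 kb and 3 over 100 kb.

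The 3 beyond 100 kb were in Fgf12, Tenm3 and Auts2. The interval in Fgf12, which encodes an intracellular fibroblast growth factor homologue of neurons, was 153.4 kb from the nearest end (chr16:28445982-28447108, score 178.99) and held an annotated start 470 bp from its midpoint. The one in Tenm3, which encodes a teneurin, a transmembrane protein of synaptic adhesion, lay 105.2 kb from an end and scored 219.7. The one in Auts2 lay 101.2 kb from an end and scored 157.21. The next farthest, in Nav2 (a neuron navigator gene, 84.4 kb, score 149.03) and in Tafa5 (81.4 kb), were both within 1 kb of an annotated start.

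Every chromosome with intervals had distal ones. They made up from 3.11% of the intervals on chromosome 12 to 9.78% on chromosome 18, with 43 each on chromosomes 5 and 11. The X chromosome had 2, both in Bcor, which encodes a corepressor of BCL6, with scores of 92.19 and 81.73. Scores on both sides of the 5 kb limit overlapped. The members nearest to it, in Ism1, Atg4c and Ece1, lay 5025, 5026 and 5040 bp from an end and scored 143.65, 123.33 and 84.32. Just outside it, intervals at Gramd1a, Spdya and Prr14 lay 4994, 4993 and 4992 bp from an end and scored 180.68, 105.39 and 172.92.

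Distal intervals had a lower median score than those near gene ends, and the distributions overlapped widely. Their median score was 105.88 (quartiles 83.2 and 156.1, range 70.28 to 1261.13), against 122.99 at 1 to 5 kb and 126.36 within 1 kb. The difference from the last was -20.48, with limits of -26.3 to -14.67 from the 95% order-statistic interval of the distal median. Among intervals scoring above the median of the whole list it was -4.35, with limits of -19.29 to 9.0 that span 0. They made up 11.7% of the 664 lowest-scoring intervals and 4.22% of the 664 highest-scoring. Scores over 200 were reached by 66 distal intervals (15.5%) and by 21.0% of all intervals. Even so, 5 of the 100 best intervals of the whole list were distal, and 2 of the 20 best.

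Width moved with the score. The median width was 988 bp for distal intervals and 1087 bp within 1 kb of a gene end, and score and width were correlated across the 427 distal intervals (Spearman's rank correlation 0.641, as a description). All intervals were also divided by width into 4 classes of about equal size. The median score of distal intervals minus that of intervals within 1 kb of an end was -8.39 up to 888 bp, -6.45 from 889 to 1084 bp, 14.37 from 1085 to 1367 bp and -43.28 above that. Distal intervals thus had the higher median in 1 of the 4 classes. The part of width in the lower scores was not tested otherwise.

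**Figure D1:**
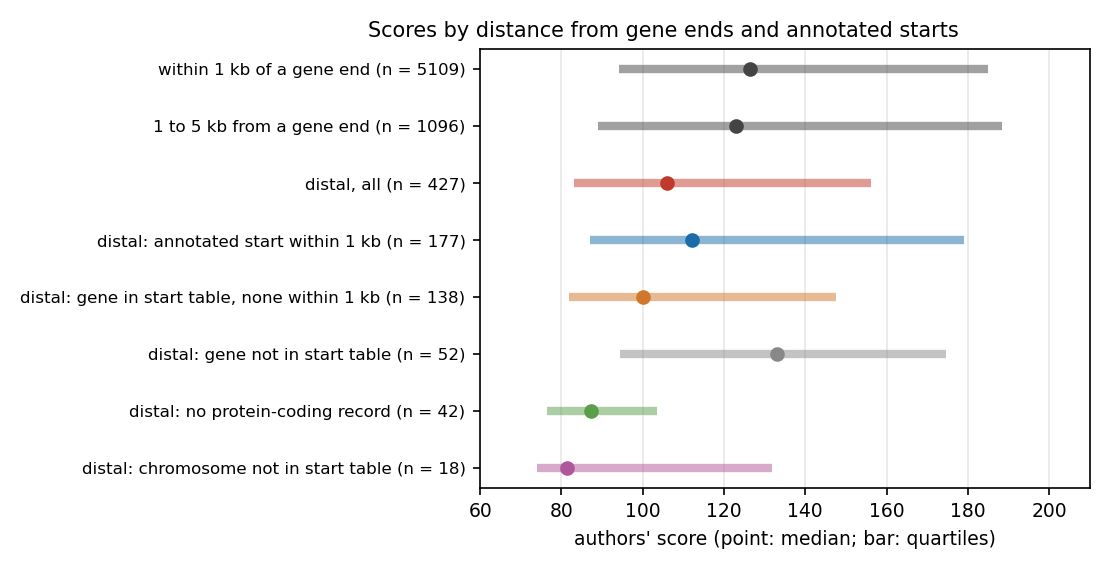
Authors' scores (no unit) on the horizontal axis for intervals by their distance from gene ends and, within the distal intervals, by whether RefSeq lists a start of transcription within 1 kb of the midpoint. Points are medians and bars run from the lower to the upper quartile. The distal median of 105.88 lies below those of both nearer classes, and the classes overlap.

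Of the 25 best distal intervals, those in Ptch1, Gata4 and Rreb1 led by score. The highest, chr13:63562912-63566458, lay in Ptch1, the receptor of Hedgehog ligands, with a score of 1261.13, rank 6 of the whole list. It was 3547 bp wide and held a listed start 1050 bp from its midpoint. It is the only member that held a listed start with its midpoint over 1 kb from it, and it is not among the 177. The second and the 17th best were both in Gata4, a zinc finger factor needed by the somatic cells of the gonad (chr14:63239618-63242012, score 894.01, and chr14:63244040-63246038, 319.27), and no interval lay at either end of Gata4. Rreb1 came next after the first of these (chr13:37825357-37828251, 753.34), while the best interval at the ends of its record scored 81.03.

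Kdm6b, which encodes a histone lysine demethylase, held the widest member (chr11:69408172-69412349, 4178 bp, score 549.15). Stox2, a winged helix gene, followed at 545.48 (chr8:47287473-47289893) and Nectin1, an adhesion molecule of adherens junctions, at 476.88 (chr9:43743365-43745643). Larp1, which encodes an RNA-binding regulator of the translation of ribosomal protein mRNAs, had a distal interval of score 444.52 (chr11:58009141-58010431). The next widest after Ptch1, in the AT-hook gene Ahdc1 (chr4:133061484-133064835, 3352 bp), scored 362.12. These were far above the distal median in every case.

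Among the other members of the best 25 were intervals in Rnf44 (431.96), Tmpo, which encodes lamina-associated polypeptides (414.77), Brd3, a BET bromodomain reader of acetylated histones (390.42), and Cbfa2t3 (365.32). Pdgfa, a ligand of the PDGF receptors, held 2 intervals that lay 2 bp apart and scored 347.36 and 232.66. Ubtf held 2 intervals 1 bp apart at 343.75 and 275.26. Plec, which encodes the cytoskeletal linker plectin, followed at 328.91, Nol4l at 319.03, Bicral, a subunit of a SWI/SNF complex, at 318.56, and Ecpas, a proteasome adaptor, at 312.96. Slc15a4, a lysosomal peptide and histidine transporter, reached 310.2, Smim14 304.52, the chromodomain helicase gene Chd9 300.02, Pafah1b2, a subunit of platelet-activating factor acetylhydrolase, 298.24 and Rara, a retinoic acid receptor, 289.74.

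**Figure D2:**
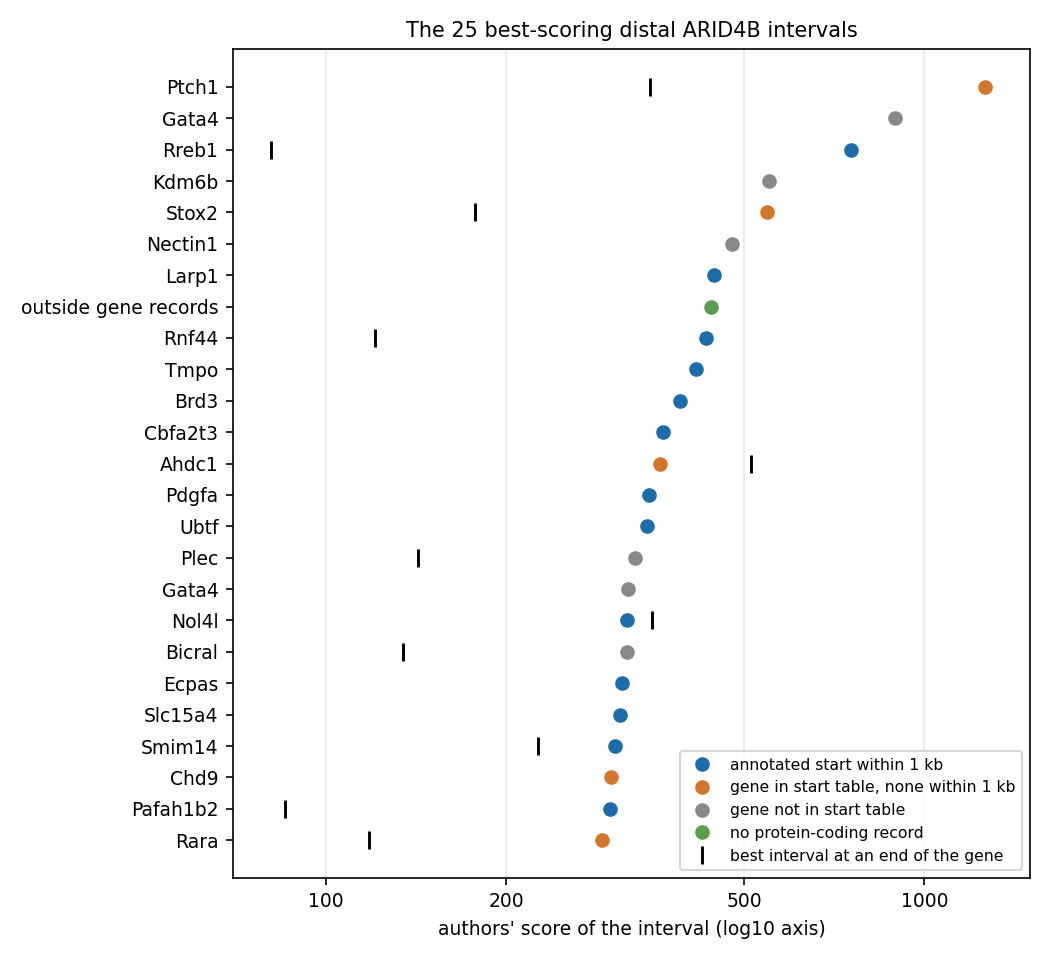
Authors' score (log10 axis, no unit) of the 25 best distal intervals, one row each, named by the containing gene. Colours give the class by annotated start, and a black tick marks the best interval at an end of the same gene where there is one. Ptch1 (1261.13) and Gata4 (894.01) lead, and the ticks of Ahdc1 (512.84) and Nol4l (350.47) lie to the right of their points.

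An interval at the gene's own ends was about as common in genes with a distal interval as over all protein-coding genes longer than 10 kb. The 382 members in protein-coding records were in 335 genes, and 108 of these 335 (32.2%) also had an interval within 1 kb of an end. Over all 13961 protein-coding records longer than 10 kb, the shortest that can hold a distal midpoint, the share was 31.5%. The 13961 include the 335. Median lengths were 68.3 kb for the 335 and 33.1 kb for all, and length was not adjusted for. Counted by member, 131 of 382 (34.3%) lay in a gene with an interval at an end. The distal interval scored above the best end interval in 48 of the 131. Ptch1 (1261.13 against 347.75), Stox2 (545.48 against 177.51) and Rnf44 (431.96 against 120.84) were among these. Wt1, a transcription factor of the developing gonad and kidney, was the opposite: its distal interval (chr2:105132979-105133845) scored 118.22 and its best end interval 626.23.

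Many members lay at annotated starts. For comparison, a listed start lay within 1 kb of 80.5% of the intervals within 1 kb of a gene end, of 40.5% of those at 1 to 5 kb, and of 43.3% of the distal ones. Of the members in protein-coding genes that the promoter table lists, 176 of 314 (56.1%) had one. The nearest listed start was within 250 bp of the midpoint for 79 members, at 250 to 500 bp for 66, at 500 to 1000 bp for 32, at 1 to 2 kb for 12 and at 2 to 5 kb for 11. For 43 it was 5 to 10 kb away and for 166 over 10 kb. Under the distal rule a start at a gene end cannot lie within 5 kb of a member. The low counts between 1 and 5 kb therefore follow in part from the rule. The counts over all distances include 52 members in genes the promoter table does not list and 42 in no protein-coding record. For the 52, the nearest listed start is that of another gene. For the 138 members in listed genes without a start within 1 kb, the median distance was 15.3 kb.

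Members at a start lay mostly just downstream of it. The interval itself held the start in 146 of 177 (82.5%), and the midpoint was downstream of the start in 146 of 177 (82.5%). The median offset was 231 bp downstream (quartiles 72.5 and 393.5 bp). Intervals within 1 kb of a gene end and of a listed start had a median offset of 195.5 bp (n = 4009). The interval in Smim14 was centred 2 bp upstream of its start, that in Pafah1b2 18 bp downstream, and that in Larp1 722 bp downstream without reaching back to it.

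**Figure D3:**
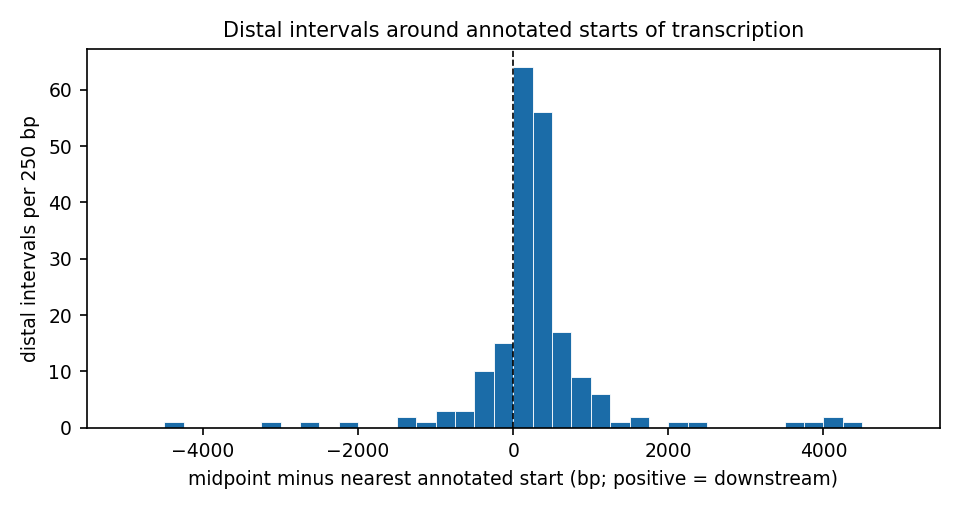
Number of distal intervals (vertical axis) in bins of 250 bp by the position of the midpoint relative to the nearest annotated start (horizontal axis, bp, positive downstream), for members within 5 kb of a start. Most of the 177 members within 1 kb lie between 0 and 500 bp downstream, around a median of 231 bp.

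The 177 members at a start were of several kinds. In 94 (53.1%) the gene had another listed start farther out, in 61 the start was the only one listed for the gene, in 21 it was the outermost of several, and 1 was the start of a gene that is not protein-coding. For the 82 where the start was the only or the outermost one listed, the gene record reached farther out without another start listed over 1 kb away on that side. Those 82 had a median score of 121.26, and 13 of the 82 genes counted by member (15.9%) had an interval at an end of the record. Rreb1, Tmpo, Pdgfa, Ecpas and Smim14 were of the outermost kind, and Larp1, Brd3 and Slc15a4 had a single listed start. The 94 members downstream of the outermost start, such as those in Rnf44 (431.96), Cbfa2t3 (365.32), Nol4l (319.03) and Pafah1b2 (298.24), had a median score of 107.3.

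Members away from starts were as wide and scored somewhat lower. The median score was 112.08 for the 177 members at a start and 99.95 for the 138 in genes that the promoter table lists without a start within 1 kb. Of the protein-coding members, 37 of 176 at a start (21.0%) and 67 of 138 without one (48.6%) lay in a gene that also had an interval at an end. Members at a start were nearer to the 5′ end of the record: 132 of 176 lay in its first 50% (75.0%), against 67 of 138 (48.6%) of the others. The same share over all listed inner starts, with or without an interval, was not computed. The remaining 112 comprised 52 members in genes not listed in the promoter table (median score 133.1), such as Gata4, Kdm6b, Nectin1 and Plec, 42 in no protein-coding record (87.2) and 18 on a chromosome the table does not cover (81.4). Counting only the 409 members on covered chromosomes, 209 (51.1%) were over 5 kb from any listed start as well, with a median score of 100.03. This count includes members of genes that the promoter table does not list, whose own starts could not be measured.

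Inner starts with an interval were rich in CG dinucleotides. The 300-base windows described above were compared between starts of protein-coding genes that lay over 5 kb from every gene end (1626 inner starts) and starts within 100 bp of a gene end (13395 outer starts). An interval midpoint lay within 1 kb of 169 inner starts, 10.4% of those listed, and of 3332 outer starts, 24.9%. CG density was measured as the ratio of observed to expected CG dinucleotides given the C and G content. Its median was 0.770 at inner starts with an interval and 0.280 at inner starts without one. At outer starts the medians were 0.844 and 0.342.

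Among inner starts with a ratio of at least 0.6 and a GC content of at least 50%, called CpG-rich here, 134 of 335 (40.0%) had an interval. Among the other inner starts 35 of 1291 (2.71%) had one. Outer starts showed the same order, with 2890 of 5885 (49.1%) and 442 of 7510 (5.89%). In proportion, the step between inner and outer starts was smaller within the CpG-rich starts (40.0% and 49.1%) than over all of them (10.4% and 24.9%). Within the starts that were not CpG-rich (2.71% and 5.89%) the proportional step was close to that over all starts. Sequencing of GC-rich DNA can differ from that of other DNA, and its part in these shares was not tested. Of the 177 members at a start, 146 (82.5%) were at a CpG-rich window, with a median score of 119.08, and the other 31 had a median of 101.27.

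**Figure D4:**
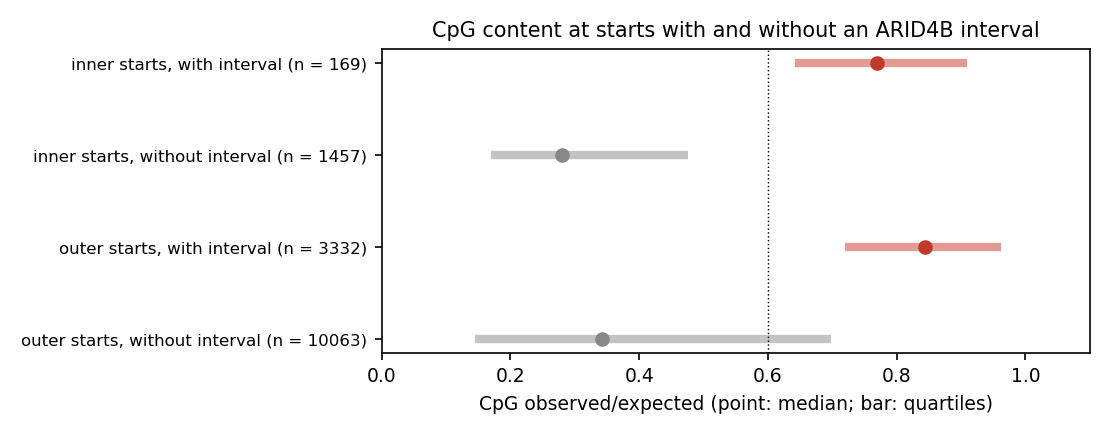
Ratio of observed to expected CG dinucleotides (horizontal axis, no unit) over 300 bases at inner starts, over 5 kb from every gene end, and outer starts, within 100 bp of a gene end, with and without an interval midpoint within 1 kb. Points are medians, bars run from the lower to the upper quartile, and the dotted line marks 0.6. Starts with an interval have medians of 0.770 and 0.844, and those without 0.280 and 0.342.

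A set of 6 short promoter motifs was searched in these windows on both strands. The GC box GGGCGG, a match for SP and KLF factors, was found in 72.8% of inner starts with an interval, 25.3% of inner starts without, 76.2% of outer starts with, 34.1% of outer starts without and 45.4% of all listed protein-coding starts. The ETS core CCGGAAG was found in 9.47% and 3.57% of inner starts with and without an interval, in 22.4% and 8.73% of outer starts and in 11.2% of all. The E-box CACGTG was in 7.69% and 5.08% of inner, 12.6% and 6.43% of outer and 7.71% of all starts. These 3 motifs contain CG, so their matches are not independent of CG density.

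The 3 motifs without CG did not follow that order. CCAAT was found in 34.9% of inner starts with an interval and 36.4% of those without, and in 38.4% of all starts. The TATA box TATAAA was in 4.73% and 14.1% of inner starts and 13.1% of all. The GATA motif AGATAA was in 3.55% and 11.5% of inner starts and 9.83% of all. A and T are scarcer in the CpG-rich windows, so these shares also move with base composition. A match describes letters in a window and no binding site.

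Within genes, the start with the distal interval usually had the higher ratio of observed to expected CG when the outermost start had no interval. For 93 members in 88 genes, the start at the member could be set beside the outermost listed start of the gene. One further member was left out because its interval reached both. The outermost start had no interval midpoint within 1 kb for 69 of the 93 (74.2%). Over all 13395 outer starts 24.9% had one, so lacking one was about as common among outer starts in general. Over these 69 the median ratio of observed to expected CG was 0.786 at the inner and 0.442 at the outermost start, and the inner one was higher in 54 (78.3%). The 69 lie in 65 genes and are not independent: some share an outermost start, and Lingo1 enters the same pair of starts more than once. CpG-rich windows numbered 55 at the inner and 21 at the outermost starts. These pairs were chosen by where an interval lay. Over all starts the median ratio was likewise 0.770 at inner starts with an interval and 0.342 at outer starts without one. The order within pairs is therefore not independent of that general difference, and no expected share was computed. Distances between the starts had a median of 18.1 kb.

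Where both starts had an interval, the order differed. In these 24 members the median ratio was 0.724 at the inner and 0.812 at the outermost start, and the inner one was higher in 7. Over all starts with an interval the medians were 0.770 for inner and 0.844 for outer starts. The inner interval had the higher score in 12 of the 24, and median scores were 117.4 and 89.6. The inner interval of Rnf44 scored 431.96 and the outermost 120.84, that of Pafah1b2 298.24 against 85.45, and that of Gatad2a, a subunit of the NuRD complex, 273.76 against 105.7. In Nol4l the outermost start, 85.5 kb away, had the higher score (350.47 against 319.03).

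Runx1, a transcription factor of blood and other lineages known for its distal and proximal promoters, is a further case from the transcription factor list. Its distal interval (chr16:92697291-92699168) scored 220.64 and held the inner start, whose ratio was 1.01, while the outermost start 128.7 kb away had a ratio of 0.137 and no interval. Sgk1, a serum- and glucocorticoid-regulated kinase, had 2 distal intervals, of scores 215.81 and 92.8, at inner starts with ratios of 0.770 and 0.370, while its outermost start over 110 kb away had 0.206 and no interval. The inner start of Arhgef7, an exchange factor for small GTPases, went the other way, with 0.958 against 1.20 at the outermost start and an interval of score 232.04 only at the inner one.

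**Figure D5:**
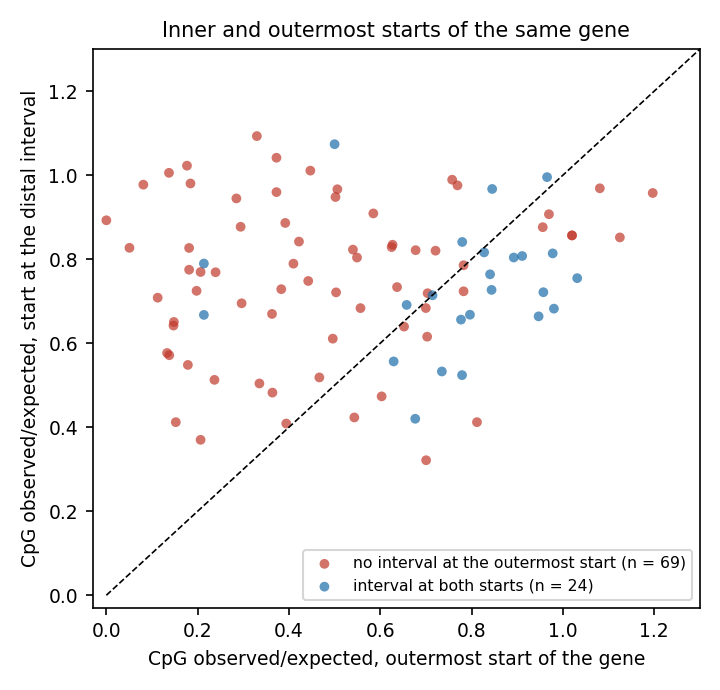
Ratio of observed to expected CG dinucleotides at the gene's outermost listed start (horizontal axis) and at the inner start with the distal interval (vertical axis), one point per member. Red points have no interval at the outermost start (n = 69), and 54 of them lie above the dashed line of equal ratios. Blue points have an interval at both starts (n = 24), of which 7 lie above it.

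Long genes held distal intervals more often, and short genes held more of them per base. Protein-coding records over 10 kb that held at least 1 distal interval made up 335 of 13961, or 2.4%. Their median length was 68.3 kb, against 33.1 kb for all such records. Among the 3491 shortest records 0.745% held one, and among the 3489 longest 4.67% did. Longer records also have more sequence over 5 kb from their ends. Per Mb of that inner sequence there were 1.94 distal intervals in the shortest records and 0.278 in the longest. Of the 335 genes, 297 held 1 distal interval, 28 held 2, 8 held 3 and 2 held 4.

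Rara and Nr3c1, both nuclear receptor genes, were among the 10 genes with 3 or more. Rara, a receptor of retinoic acid, held 4, of scores 289.74, 146.37, 111.69 and 90.31, between chr11:98951176 and chr11:98969440, none of them within 1 kb of a listed start. Its best end interval scored 118.22. Nr3c1, the glucocorticoid receptor, held 3 within 3.13 kb, of scores 165.29, 94.15 and 80.98, and had no interval at an end. The promoter table does not cover the chromosome of Nr3c1, so the distance of these 3 to its starts is not known here.

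Other genes with 3 had varied functions. Ubtf held an interval of score 95.49 beside the adjacent pair, whose members lay at 2 different listed starts. Plec held others of 149.46 and 74.16, and Ahdc1 of 288.57 and 107.84. Ptprs, a receptor tyrosine phosphatase of synapses, held 152.02, 132.01 and 86.98, the last at a listed start. Gse1 held 109.86, 106.72 and 99.87 and had an end interval of 343.38. In Abr, a regulator of small GTPases, all 3 (91.02, 76.92 and 71.15) were within 1 kb of a listed start. The 3 in Exoc3l2, of scores 75.93, 75.73 and 73.71, were all among the weakest of the list.

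Neighbouring intervals were found for 80 distal intervals (18.7%, limits 15.1 to 22.8%), counted as another interval within 5 kb. The share was 15.3% for all intervals, 30.3% for those at 1 to 5 kb and 11.7% for those within 1 kb of an end. For distal intervals over 10 kb from gene ends the share was 14.8%, below that of all intervals. For 58 of the 80 the neighbour was distal too. The pairs in Pdgfa and Ubtf, 2 and 1 bp apart, were the only ones closer than 10 bp.

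Gene groups were read as the share of their members over 10 kb that held a distal interval, beside the 2.4% of all protein-coding records over 10 kb. Length was not adjusted for, and most groups consist of genes longer than the 33.1 kb median. The groups are small, were written down with earlier results of these data known, and received no test. Of the 335 genes with a distal interval, 69 (20.6%) were in at least 1 of the 24 groups. The groups name 1037 genes of any length. The share of all protein-coding records over 10 kb that is in a group was not computed, so the 20.6% is a count only.

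Nuclear receptors and their coregulators had the highest share of any list, 9 of 40 (22.5%), with a median gene length of 76.3 kb. Beside Rara and Nr3c1 they included Nr2f2, a regulator of steroidogenic progenitors (178.49 and 153.01), Rora (135.33), Nr4a1 (112.08, at a listed start), Nr4a2 (103.75), Nr5a2 (75.05) and Rarg (74.14). Zinc finger, bZIP, bHLH and ETS factors had 16 of 90 (17.8%), led by Rreb1, Cbfa2t3, Zbtb46 (234.63 and 160.26) and Runx1. The homeobox list had 4 of 31 (12.9%), which were Zfhx3 (155.4), Lhx9 (100.13), Tshz3 (87.95) and Meis2 (70.9). The GATA, SOX, FOX and NFI factors had 2 of 26, Gata4 and Foxp4 (87.77). Sox9, a determinant of Sertoli cells, is shorter than 10 kb and held none.

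Chromatin regulators were divided. Remodellers and BET proteins had 7 of 47 (14.9%), led by Brd3 (390.42), Chd9 (300.02), Gatad2a (273.76) and Baz2a (179.73). Other histone and DNA modifiers had 6 of 77 (7.79%), among them Kdm6b (549.15), Kdm4c (244.4), Kmt2d, a histone methyltransferase (114.2 and 87.45), and Dnmt3a, a DNA methyltransferase (75.01). The SIN3 complex and its relatives, to which ARID4B belongs, had 0 of 20, which allows a share of up to 15%, and 14 of the same 20 genes had an interval at an end, against 31.5% of all protein-coding records over 10 kb. Shares of that size were found in other lists too, such as Hedgehog (10 of 14) and TGF-beta and BMP (23 of 33). Sin3a and Arid4a were among those with an end interval (402.47 and 639.41), and Arid4b itself had neither.

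Markers and regulators of testis cell types were present in small numbers. The Sertoli and gonadal somatic list had 5 of 24 (20.8%), which were Gata4, Cyp26b1, the enzyme that degrades retinoic acid (132.78 and 96.16), Wt1 (118.22), Inhba, an activin and inhibin subunit (109.4 and 99.34), and Lhx9. The Leydig list had Nr2f2 and Pdgfra, a PDGF receptor (157.02), of 13. The myoid list had Mylk, myosin light chain kinase (120.26), and Tpm1, a tropomyosin (106.94 and 87.11), of 9. The germ cell list had Dnmt3a alone of 24. No gene of the endothelial list (0 of 12, up to 25%) or the macrophage list (0 of 8, up to 37.5%) held one. Genes of these lists act in several cell types, and which cells carried the intervals was not measured.

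Most signalling lists had 1 or 2 such genes. Hedgehog had Ptch1 alone of 14 genes, and Wnt had Wnt5a (84.36) of 48. TGF-beta and BMP had Smad7, an inhibitory SMAD (123.24 and 72.76), of 33. Notch had 2 genes of 20, among them Rbpj, the transcription factor of the pathway (106.97). Receptor tyrosine kinases and MAPK had Pdgfra and Epha2, an ephrin receptor (96.14), of 48. Hippo had Fat1, an atypical cadherin (261.04), of 26, and PI3K, mTOR and AMPK had Sgk1 of 37.

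Structural and RNA-related lists completed the set. Actin, small GTPase and microtubule regulators had 7 of 97 (7.22%), including Arhgef7 (232.04), Myo10, an unconventional myosin (155.52), Tns3, a tensin (127.83), and Arhgap22 (118.9). Junction and matrix genes had Nectin1, Plec and Ptprs of 61. RNA binding and splicing had Tnrc6a, a partner of Argonaute proteins (254.69), and Mbnl1, a muscleblind splicing factor (183.59), of 53. The ribosomal protein list had no gene longer than 10 kb and so no place for a distal interval.

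Intervals outside gene records were few and weak. The 41 had a median score of 85.87 and a median width of 862 bp, against 108.75 and 1007 bp for the 382 in protein-coding records. The best was chr15:85671126-85672371, with a score of 440.72, rank 178 of the list. It lay between Wnt7b, 89.9 kb away, and Ppara, 63.2 kb away, and 34.9 kb from the let-7 microRNA gene Mirlet7c-2. It was 1 of 5 distal intervals within 33.8 kb, a run picked out after its values were seen. The other 4 scored 123.31, 97.22, 82.16 and 76.51, so 1 of the 5 stood well above the rest.

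The next best outside records were much weaker. They were chr5:33695052-33696287 (170.92), 23.5 kb from the mitotic spindle gene Tacc3 and 26.1 kb from Fgfr3, a fibroblast growth factor receptor, and chr18:75342226-75343577 (168.75), 24.5 kb from Smad7 and 55.9 kb from Dym. After these came chr8:84200814-84201845 (167.56), 7.19 kb from the microRNA gene Mir23a, with Zswim4 9.61 kb away and Nanos3, an RNA-binding regulator of germ cells, 24.8 kb away. Nearness is given as position only, and no link of an interval to a gene was measured.

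The 5 weakest distal intervals scored close to 70.02, the minimum of the whole list. They lay in Kdm2b, a histone demethylase gene (70.28), Nrbp1 (70.3), Grik5, a kainate receptor subunit gene (70.33), Ebf4 (70.37), and at chr9:61626307-61626883 outside records (70.42). The first 2 were within 1 kb of listed starts. The Kdm2b interval held its start. The Nrbp1 interval did not, with its midpoint 753 bp away, and a neighbouring member of score 123.26 held that start.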

How the data were processed

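The submitters' processing notes name BWA, MACS and the build mm9. No version, parameter or filter is given in the sources used here. What the authors deposited is a table of called ChIP intervals, each with 1 value, treated here as a score. The name of the list calls the value a p-value, but all values exceed 70, so it is no plain p-value. Its scale is not stated, and it was used only to describe, rank and divide intervals within this list. The list is named for mm10, and its positions were read as GRCm38 and counted from 1. Reads and coverage were not analysed here, so the depth is unknown.

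Distances were measured from interval midpoints to the ends of 49943 RefSeq gene records (GRCm38.p6) and to 32851 listed starts of 27025 genes. The promoter table is not complete, and a missing start shows nothing about the gene. In counts over starts, those of a gene under 1 kb apart were merged, keeping the one nearest to an interval midpoint. Python 3.11.15, numpy 2.4.6, pandas 2.3.3, scipy 1.17.1 and matplotlib 3.10.9 were used, and the distance steps were tested on simulated data with known answers. Intervals of shares are exact Clopper-Pearson bounds at 95%, cover counting error only, and treat intervals as independent, which neighbours are not. A count of 0 of n allows 3 of n.

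The members and gene lists were chosen with earlier results of these data known. Genes were named by rule: those holding the 25 best distal intervals, 3 or more of them, the 3 widest, 5 farthest or 5 weakest, up to 4 best per list, the 5 best outside records with their neighbours, the 3 on each side of the limit, and Gata4, Wt1, Sox9, Ptch1, Arid4a, Arid4b and Sin3a. Bcor, Lmna, Rbpj, Sgk1 and other genes in start comparisons or short lists were chosen after their values were seen. Results were recomputed with other distance limits, the interval edge, protein-coding ends only, higher scores and autosomes only. Some results that this rule would name are not reported here. Base content and motifs were taken from promoter windows and not from the intervals.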

Additional observations from a re-analysis of the deposited data

How the results depend on the processing

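The difference in median score kept its sign under every alternative tried. With a limit of 3 kb from gene ends there were 650 distal intervals, 3.55% of protein-coding genes over 10 kb held one, and 22.8% of them had another interval within 5 kb. With 10 kb these values were 230, 1.27% and 14.8%. The last is below the 15.3% of all intervals, while the 18.7% at 5 kb is above it. The limits of both shares include 15.3%, so neither order is resolved. Both shares are above the 11.7% of intervals within 1 kb of a gene end. Counting only the ends of protein-coding records gave 637 distal intervals and 3.22% of genes. Keeping only intervals above the median score of the list left 168 distal intervals with a median score of 178.74 and a median width of 1249.5 bp. Of these, 95.8% lay inside a gene record, 1.05% of genes held one, and 23.2% had a neighbour within 5 kb. The difference in median score from intervals within 1 kb of a gene end was then -4.35 (limits -19.29 to 9.0), against -20.48 with all intervals. The share at a listed start was 35.9% when the interval had to hold the start and 35.5% within 500 bp, against 43.3% within 1 kb. Every alternative for that share was added after the data were seen, and the other limits and scores gave between 43.2 and 47.9% for it. The other 41 of 57 recomputed values moved by less than their own error or, for counts, by less than 1.5 times. The count of 637 is among them and lies just under that limit. No paired analysis was possible because there was 1 ChIP library. For the same reason no replicate could be left out. The depth behind the list is unknown, so weak distal regions below its lowest score of 70.02 are not seen here.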
